A study of Mus musculus with 4 samples.

Results

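The Cyp4a genes of the mouse encode a family of liver and kidney cytochrome P450 enzymes that hydroxylate fatty acids at their far end. Their 6 members here, Cyp4a10, Cyp4a12a, Cyp4a12b, Cyp4a14, Cyp4a31 and Cyp4a32, were found by symbol among the 35522 genes of each deposited table, and all 6 had reads in every library. They were taken up because of what this comparison had already shown, so their differences between the genotypes are a description. Where a member is said to be called or past the threshold in the fit across all genes, that is part of the description and supports nothing about the family. RNA came from livers of C57BL/6 mice collected 24 h after diethylnitrosamine (DEN), a carcinogen that P450 enzymes of hepatocytes turn into a DNA-alkylating agent. Of the libraries, 2 were labelled Control and 2 Dph1 KO, and both groups had received DEN. Dph1 encodes a subunit of the complex that begins diphthamide synthesis, in which a histidine of elongation factor eEF2 is modified. The labels give neither the sex or age of the mice, nor the dose of DEN, nor the allele and the cells in which Dph1 was removed, nor the hour of the day at collection. Whether each library is a separate animal is not said either, and p-values below then reflect no more than the spread of these samples, technical or not. Where livers are counted below, libraries are meant.

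CYP4A enzymes sit in the endoplasmic reticulum, take electrons from P450 reductase and put a hydroxyl group on the terminal carbon of medium- and long-chain fatty acids. Alcohol and aldehyde dehydrogenases turn the products into dicarboxylic acids, which peroxisomes shorten by beta-oxidation. Cyp4a10 and Cyp4a14 are classic targets of the fatty acid receptor PPAR-alpha and are induced in liver by fasting and by fibrate drugs. Cyp4a12a is known as a male-predominant enzyme that forms 20-HETE from arachidonic acid.

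Within the Cyp4a12 pair, and within the trio of Cyp4a10, Cyp4a31 and Cyp4a32, the members are close copies, which limits how reads can be assigned to them. Coding exon 6, of 155 bases, is shown because it is where the Cyp4a12 copies differ most. It is read 5′ to 3′ in the direction of the gene from the GRCm38 genome with GENCODE M21 exons. Capitals mark bases that differ from Cyp4a10, except in Cyp4a12b, where they mark bases that differ from Cyp4a12a.
Cyp4a10 (chr4:115524725-115524879, plus strand): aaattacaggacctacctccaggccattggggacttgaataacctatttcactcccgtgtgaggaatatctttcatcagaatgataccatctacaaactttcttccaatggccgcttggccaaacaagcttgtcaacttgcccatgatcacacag
Cyp4a31 (chr4:115570186-115570340, plus strand): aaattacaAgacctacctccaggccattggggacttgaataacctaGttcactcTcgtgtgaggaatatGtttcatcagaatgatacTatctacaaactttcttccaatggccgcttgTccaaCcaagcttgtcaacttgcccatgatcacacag
Cyp4a32 (chr4:115610453-115610607, plus strand): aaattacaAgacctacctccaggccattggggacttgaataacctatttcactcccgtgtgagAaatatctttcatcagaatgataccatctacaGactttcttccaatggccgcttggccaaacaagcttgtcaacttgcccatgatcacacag
Cyp4a14 (chr4:115492081-115492235, minus strand): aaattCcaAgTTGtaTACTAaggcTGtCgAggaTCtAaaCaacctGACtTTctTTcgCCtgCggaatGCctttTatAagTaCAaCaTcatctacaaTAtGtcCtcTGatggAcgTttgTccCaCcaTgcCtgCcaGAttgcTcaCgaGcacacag
Cyp4a12a (chr4:115326628-115326782, plus strand): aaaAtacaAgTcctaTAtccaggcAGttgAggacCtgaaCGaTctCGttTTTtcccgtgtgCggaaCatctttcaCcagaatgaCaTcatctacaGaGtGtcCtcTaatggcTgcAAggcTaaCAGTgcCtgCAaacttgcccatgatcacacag
Cyp4a12b (chr4:115432881-115433035, plus strand): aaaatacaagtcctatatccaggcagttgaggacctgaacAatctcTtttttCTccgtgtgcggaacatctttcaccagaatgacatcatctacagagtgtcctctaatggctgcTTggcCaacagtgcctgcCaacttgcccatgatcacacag
Cyp4a32 differed from Cyp4a10 at 3 of these bases, Cyp4a31 at 7, Cyp4a12a at 38 and Cyp4a14 at 56, while Cyp4a12b differed from Cyp4a12a at 8. Coding exon 11, of 77 bases, is shown because it has the same letters in several members. Capitals again mark bases that differ from Cyp4a10, and the sequence printed for Cyp4a10 is also that of Cyp4a31 and Cyp4a32, as that of Cyp4a12a is also that of Cyp4a12b.
Cyp4a10 (chr4:115529442-115529518, plus strand): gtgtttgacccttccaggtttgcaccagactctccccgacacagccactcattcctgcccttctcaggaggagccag
Cyp4a14 (chr4:115489789-115489865, minus strand): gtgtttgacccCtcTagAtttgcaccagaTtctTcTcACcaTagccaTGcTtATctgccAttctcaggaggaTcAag
Cyp4a12a (chr4:115328926-115329002, plus strand): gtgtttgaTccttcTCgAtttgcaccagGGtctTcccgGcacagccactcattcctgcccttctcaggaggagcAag
Across the whole coding sequence, Cyp4a12a and Cyp4a12b were identical at 98.5% of 1524 bases, with 23 differences and none in coding exons 1, 2, 11 and 12. Cyp4a10 was identical to Cyp4a32 at 97.2% and to Cyp4a31 at 96.6% of 1527 bases. Cyp4a14 stood apart, at 76.0% to 77.6% identity with the other 5.

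All members lie in a stretch of 323.3 kb on chromosome 4 (GRCm38). In genome order these are Cyp4a12a (gene ID 277753, chr4:115299046-115332815), Cyp4a12b (13118, chr4:115411624-115439034), Cyp4a14 (13119, chr4:115486200-115496141), Cyp4a10 (13117, chr4:115518287-115533649), Cyp4a31 (666168, chr4:115563649-115579015) and Cyp4a32 (100040843, chr4:115600938-115622366). Cyp4a14 is on the minus strand and the other 5 are on the plus strand. The gaps between neighbouring members ran from 21.9 kb, between Cyp4a31 and Cyp4a32, to 78.8 kb, between the Cyp4a12 copies.

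The libraries held 19474596 to 21137358 reads in genes, of which 89.3% to 90.2% were uniquely matched. Dph1 had 70.3 and 68.3 CPM in Control and 17.8 and 31.5 CPM in Dph1 KO, where CPM are read counts scaled to a common library total with TMM factors. All 10 hepatocyte markers were detected, with summed levels of 93949 and 102798 TPM in Control and 86707 and 79421 TPM in Dph1 KO, the authors' values per gene length. Of these markers 1, Apoa1, fell (log2 fold change -1.92, edgeR adjusted p = 0.0161) and none rose. Of markers of other liver cells, 1 of 7 for macrophages and 2 of 7 for stellate cells fell, as did 1 of 3 tested for lymphocytes and neutrophils (Cd79a, -1.32, edgeR adjusted p = 0.0338). None of 5 for cholangiocytes or 7 for endothelium was called. Of 10 genes of hepatocytes near the central vein 2 rose and 2 fell, and of 10 near the portal vein 1 fell. Over all 13303 genes tested, 4.86% rose and 7.47% fell at an edgeR adjusted p under 0.05. The part these markers play in the members' values was not tested. Markers of kidney tubule, the other main site of Cyp4a expression, summed to at most 0.140 TPM, and Kap, Slc22a6 and Umod had no read in any library. Because the samples are whole liver, fewer cells of a type and less RNA per cell cannot be told apart.

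Cyp4a transcripts were scarcer in both Dph1 KO livers than in both Control livers. The 6 members together had 31113 and 40883 reads in the Control livers, against 16991 and 8231 in the Dph1 KO livers, which was 0.160% and 0.201% against 0.0832% and 0.0389% of all reads. After TMM scaling the summed level was 1692 and 2274 CPM in Control and 720 and 376 CPM in Dph1 KO, or 1983 ± 411 against 548 ± 243 (SD, n = 2 each). That was 3.62-fold lower in Dph1 KO (log2 fold change -1.85, SE 0.36), and the genotypes did not overlap. Cyp4a31 did not share the lower levels, and Cyp4a12a on its own overlapped between the genotypes. In the fit across all 13303 genes tested, 3 of the 6 members were called lower, with a Benjamini-Hochberg adjusted p of edgeR's quasi-likelihood test under 0.05, and none was called higher. The same rule called 7.47% of all tested genes lower and 4.86% higher. All 6 passed the filter on low counts, and since the members were chosen on this contrast, nothing is read from their count.

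Cyp4a10, the most abundant member in every library, had 15042 and 15624 reads in Control, against 6712 and 3584 in Dph1 KO. In CPM this was 818 and 869 against 284 and 164. Its Control libraries lay close together, and the higher Dph1 KO library was well below both of them. The means were 844 ± 35.9 and 224 ± 85.2 CPM (SD, n = 2 each), 3.76-fold lower in Dph1 KO (log2 fold change -1.91, SE 0.31).

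Cyp4a14, the other strongly inducible member, had 11207 and 11619 reads in Control, against 3683 and 1861 in Dph1 KO. Its level was 610 and 646 CPM in Control and 156 and 85.1 CPM in Dph1 KO. The order of the libraries was that of Cyp4a10, with the second Dph1 KO library lowest, and the genotypes did not overlap. The mean was 628 ± 25.9 CPM against 121 ± 50.2 CPM, 5.21-fold lower in Dph1 KO (log2 fold change -2.38, SE 0.32). Since 99.9% to 100% of its reads were uniquely matched, this value hardly depends on the handling of shared reads.

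Cyp4a31 and Cyp4a32, the close copies of Cyp4a10, were minor transcripts and did not follow it in size. Cyp4a31 had 23.1 and 31.1 CPM in Control and 40.1 and 19.6 CPM in Dph1 KO, so the Dph1 KO libraries lay on either side of the Control pair. Its log2 fold change was 0.14 (SE 0.30), smaller than its own standard error. Leaving out the first Dph1 KO library made it -0.44, and leaving out the second made it 0.59 and past the threshold. Cyp4a32 had 42.4 and 57.0 CPM in Control and 37.0 and 31.7 CPM in Dph1 KO. Both Dph1 KO values were below both Control values, with -0.53 as its log2 fold change (SE 0.22), and the gene was not called with all its reads.

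Cyp4a12a differed more between livers of 1 genotype than any other member. It had 2894 and 10309 reads in Control, against 4527 and 1515 in Dph1 KO, or 157 and 573 CPM against 192 and 69.3 CPM. The first Control library was below the first Dph1 KO library, so the genotypes overlapped. The log2 fold change was -1.48 (SE 0.56) and the gene was not called. Without the second Control library the log2 fold change was -0.27, and without the first Control or the first Dph1 KO library it passed the threshold, at -2.14 and -2.36.

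Cyp4a12b, its near-identical copy, had 765 and 1748 reads in Control, against 249 and 149 in Dph1 KO. In CPM this was 41.6 and 97.2 against 10.6 and 6.82. The Control libraries differed, yet both Dph1 KO libraries were far below either of them. The means of 69.4 ± 39.3 and 8.68 ± 2.64 CPM gave the largest fold of the family, 7.98-fold lower in Dph1 KO (log2 fold change -3.0, SE 0.38).

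**Figure D1:**
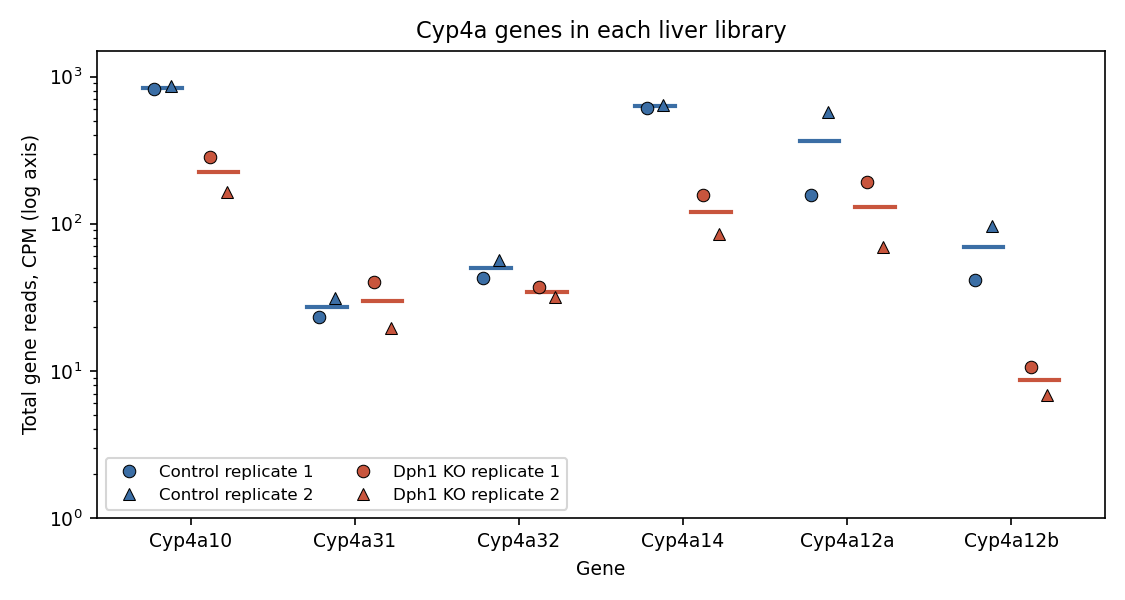
Total gene reads of each Cyp4a gene in CPM (log axis) for the 4 livers, with Control in blue, Dph1 KO in red, and a horizontal bar at the mean of each genotype. Cyp4a10, Cyp4a14, Cyp4a12b and Cyp4a32 are lower in both Dph1 KO livers than in both Control livers, Cyp4a12a and Cyp4a31 overlap, and the Control livers lie far apart for Cyp4a12a (157 and 573 CPM).

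In all, both Dph1 KO libraries lay below both Control libraries for 4 of the 6 members, as they did for 32.5% of all tested genes, and the genotypes did not overlap in either direction for 67.4% of them. Only 0.459% of tested genes had a lower log2 fold change than Cyp4a12b, 0.677% one lower than Cyp4a14, 1.05% one lower than Cyp4a10 and 1.9% one lower than Cyp4a12a. Cyp4a32 had 20.4% of genes below it and Cyp4a31 56.3%. These places describe how the members were chosen and carry no test.

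Per gene length, Cyp4a10 was the leading transcript in each liver, but the order below it changed. Its level was 616 and 589 TPM in Control and 291 and 134 TPM in Dph1 KO, and its place among all genes went from 250 and 256 to 456 and 911. Cyp4a14 came next in Control, at 382 and 363 TPM, against 134 and 56.6 TPM in Dph1 KO. Cyp4a12a was the third member in Control, at 102 and 338 TPM, and in the first Dph1 KO library its 174 TPM stood above Cyp4a14. These 3 members held 87.0% to 94.0% of the family's TPM.

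The minor members changed places. Cyp4a12b had 27.2 and 58.0 TPM in Control and 9.57 and 5.0 TPM in Dph1 KO, where it was the lowest of the 6. Cyp4a32 had 28.6 and 31.1 TPM against 26.6 and 18.6 TPM, and Cyp4a31 had 14.2 and 16.7 TPM against 32.7 and 12.3 TPM. Neighbours in the order differed beyond their spread in Control for Cyp4a10 over Cyp4a14 (602 ± 19.0 and 373 ± 13.3 TPM) and for Cyp4a32 over Cyp4a31 (29.9 ± 1.75 and 15.4 ± 1.76 TPM). Cyp4a12a varied widely in Control (220 ± 167 TPM), but in each Control library it lay below Cyp4a14 and above the minor members. Cyp4a12b (42.6 ± 21.7 TPM) changed order with Cyp4a32 between the Control libraries, which leaves its place unsettled. In Dph1 KO, the spreads of Cyp4a10 (213 ± 111 TPM), Cyp4a12a (112 ± 87.1 TPM) and Cyp4a14 (95.3 ± 54.7 TPM) overlapped. So did those of Cyp4a31 (22.5 ± 14.4 TPM) and Cyp4a32 (22.6 ± 5.62 TPM). Within the Dph1 KO libraries, however, Cyp4a10 had 2.17 and 2.36 times the TPM of Cyp4a14, against 1.61 and 1.62 times in Control. Cyp4a12a and Cyp4a14 changed order between the Dph1 KO libraries, as did Cyp4a31 and Cyp4a32.

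Reads that match several copies could carry a difference from one member to another, so uniquely matched reads were set beside all reads. The unique share was 80.5% to 81.4% for Cyp4a10, 60.3% to 63.2% for Cyp4a12a, 60.4% to 63.5% for Cyp4a12b, 89.95% to 91.5% for Cyp4a31 and 75% to 80.4% for Cyp4a32. It ran over the members in much the same order as the sequences, although gene reads also cover introns and the stretches do not. Of all stretches of 75 bases in the transcript, those found in no other gene were 80.9% for Cyp4a10, 59.2% for Cyp4a12a, 58.7% for Cyp4a12b, 86.1% for Cyp4a31, 69.6% for Cyp4a32 and 100% for Cyp4a14. The Cyp4a12 copies shared stretches only with each other, and the copies of the Cyp4a10 trio almost only among themselves. For Cyp4a32 the annotated transcript is the coding sequence with hardly any untranslated part, so its share refers to that. Its share of such stretches ran from 53.2% with 50 bases to 79.9% with 100 bases.

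**Figure D2:**
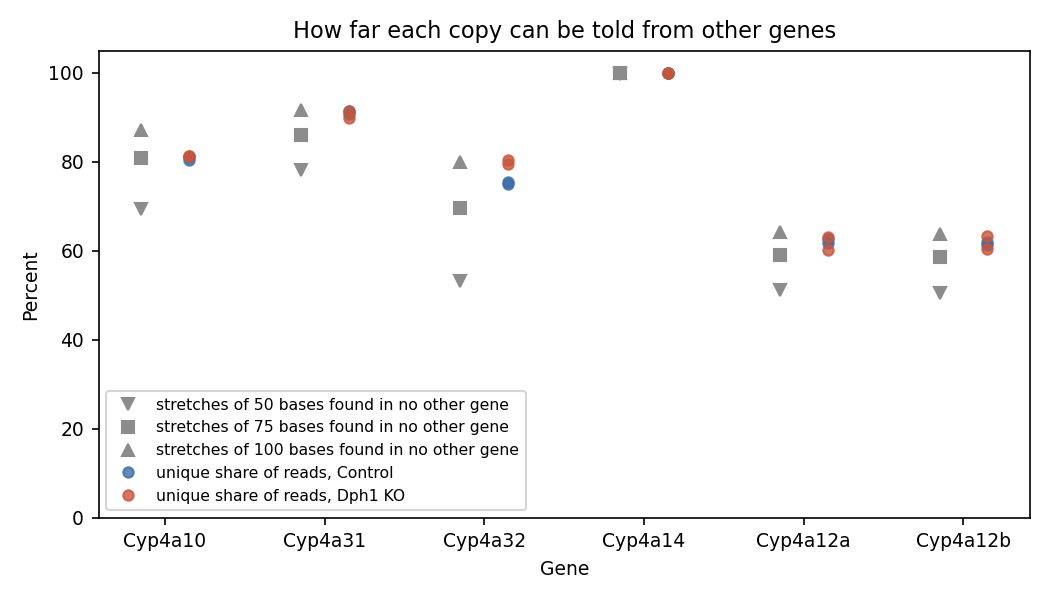
Percent of each gene's reads that were uniquely matched in the 4 livers (blue Control, red Dph1 KO), beside the percent of its transcript stretches of 50, 75 or 100 bases that occur in no other gene (grey). The Cyp4a12 copies have the lowest unique share, near 60%, and Cyp4a14 has the highest, at 99.9% to 100%.

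With unique reads alone, log2 fold changes were -1.91 for Cyp4a10, -2.39 for Cyp4a14, -2.99 for Cyp4a12b, -1.48 for Cyp4a12a, -0.45 for Cyp4a32 and 0.13 for Cyp4a31. The same 3 members were called lower, where this fit called 7.53% of 13079 genes lower. Sums over copies do not depend on how shared reads were divided among them. Cyp4a10, Cyp4a31 and Cyp4a32 together had 884 and 957 CPM in Control and 362 and 215 CPM in Dph1 KO (log2 fold change -1.67, SE 0.31). The Cyp4a12 copies together had 199 and 671 CPM in Control and 202 and 76.1 CPM in Dph1 KO, so their sum overlapped between the genotypes (log2 fold change -1.64, SE 0.54). Without the second Control library this sum gave -0.52.

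The make-up of each group of copies differed between the livers. Among unique reads of the Cyp4a12 copies, Cyp4a12b held 20.6% (95% Clopper-Pearson interval 18.9 to 22.3%) and 14.5% (13.7 to 15.4%) in the Control libraries. In Dph1 KO it held 5.23% (4.46 to 6.08%) and 8.97% (7.28 to 10.9%). The intervals cover counting error only, and the share was lower in both Dph1 KO livers than in either Control liver. There were thus 3.86 and 5.88 unique Cyp4a12a reads per unique Cyp4a12b read in Control, against 18.1 and 10.1 in Dph1 KO, and all reads gave 3.78, 5.90, 18.2 and 10.2. Reads that span 2 exons gave Cyp4a12b shares of 20.4%, 15.5%, 5.48% and 9.27% in the same order.

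Among the Cyp4a10 copies, Cyp4a10 itself held 92.6% and 90.8% of the trio's unique reads in Control, against 77.8% and 75.6% in Dph1 KO. Cyp4a31 took 2.95% and 3.66% in Control, against 12.3% and 9.98% in Dph1 KO, and Cyp4a32 4.46% and 5.54% against 9.89% and 14.5%. Both minor copies were therefore a larger part of the trio in Dph1 KO livers. Unique reads that span 2 exons gave Cyp4a32 smaller shares, 3.77% and 3.38% in Control, against 6.22% and 9.28% in Dph1 KO. They gave Cyp4a31 2.78% and 3.21% against 11.8% and 9.61%, and Cyp4a10 93.5% and 93.4% against 82.0% and 81.1%. There were 31.4 and 24.8 unique Cyp4a10 reads per unique Cyp4a31 read in Control, against 6.31 and 7.57 in Dph1 KO.

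**Figure D3:**
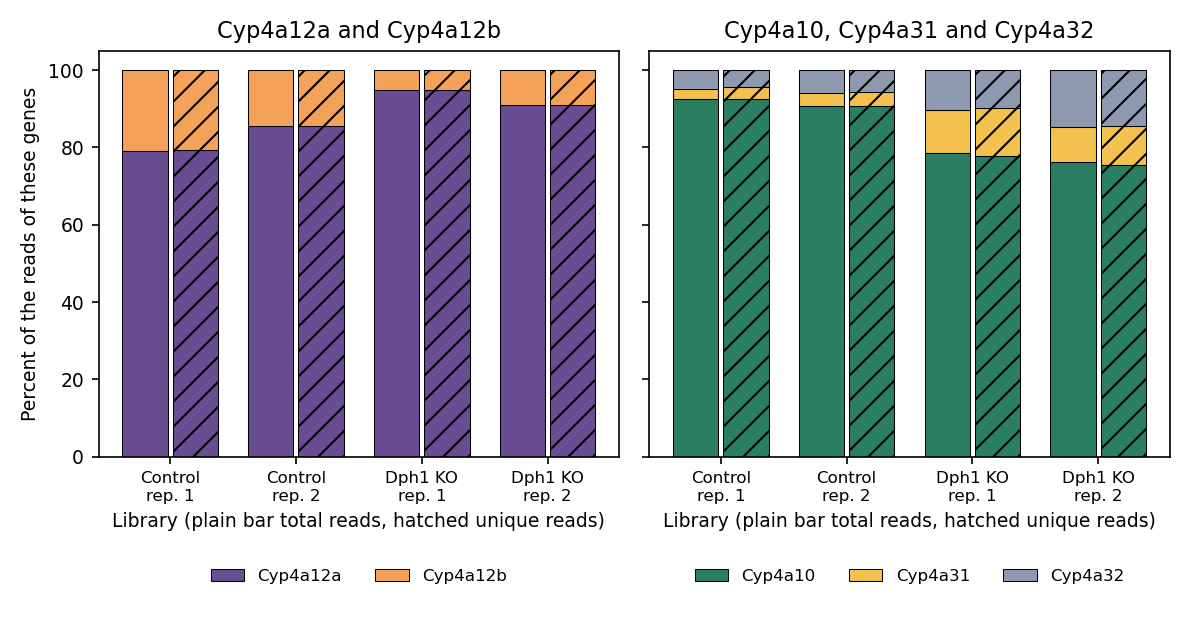
Percent of reads held by each copy within the Cyp4a12 pair (left) and the Cyp4a10, Cyp4a31 and Cyp4a32 trio (right) in each liver, with plain bars for total and hatched bars for unique reads. Cyp4a12b is a smaller part of its pair, and Cyp4a31 and Cyp4a32 a larger part of the trio, in both Dph1 KO livers, with total and unique reads alike.

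For Cyp4a10 and Cyp4a14 the ratio between the genotypes was nearer 1 in intron reads than in exon reads, although intron reads were few. Cyp4a10 had 45 and 255 intron reads in Control, against 218 and 128 in Dph1 KO, a ratio of Dph1 KO to Control means of 0.908 in CPM, against 0.259 for exon reads. Cyp4a14 had 79 and 281 against 107 and 113, a ratio of 0.487, against 0.187 in exons. The Control libraries differed severalfold for both genes and their ranges covered the Dph1 KO values, so no difference in introns was detectable. Cyp4a12a (7 and 62 against 31 and 3) and Cyp4a12b (3 and 10 against 4 and 1) had too few intron reads to compare. Cyp4a31 had 9 and 35 intron reads in Control, against 71 and 46 in Dph1 KO.

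Cyp4a32 had far more of its reads in introns than the other members, 140 and 279 in Control, against 329 and 253 in Dph1 KO, which was 17.9% and 27.2% of its reads against 37.7% and 36.5%. Its exon reads alone gave a log2 fold change of -0.78, called lower, where all its reads gave -0.53. Over the family, the intron share was 0.910% and 2.26% in the Control livers, against 4.47% and 6.61% in the Dph1 KO livers. Over all nuclear genes the intron share was 4.05% and 3.36% against 5.77% and 4.67%, so it was higher in Dph1 KO there too, and the part this plays in the members' values was not tested.

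Replicates of 1 genotype were compared over the 7618 genes with at least 10 CPM, where the median gap on the log2 scale was 0.16 between the Control livers and 0.29 between the Dph1 KO livers. Cyp4a12a differed 3.64-fold between the Control livers, more than 99.9% of these genes, and 2.77-fold between the Dph1 KO livers, more than 99.2%. Cyp4a12b differed 2.34-fold in Control, more than 99.7%, and 1.55-fold in Dph1 KO. Cyp4a10 and Cyp4a14 differed by only 1.06-fold in Control, but by 1.74-fold and 1.83-fold in Dph1 KO, where the second library was the lower. In CPM, each member had a larger value in the second Control library than in the first, and a larger one in the first Dph1 KO library than in the second. In TPM, Cyp4a10 (616 and 589) and Cyp4a14 (382 and 363) were lower in the second Control library than in the first.

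Adipocyte markers had reads in every library, and the second Control library, highest for Cyp4a12a, held the most by their sum. Their summed level was 3.03 and 12.5 TPM in Control and 3.98 and 5.46 TPM in Dph1 KO, and Lep was at 0 in all 4 libraries. Cfd had 1, 78, 0 and 1 reads and Adipoq 0, 11, 1 and 0, in the same order. Fabp4, the only marker of this list that was tested, had 2.80, 4.61, 3.93 and 5.29 TPM. It was highest in the second Dph1 KO library, at a log2 fold change of -0.04. Cfd, Adipoq and Fabp4 were picked after their values were seen, and their part in the Cyp4a12a result was not tested.

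Base composition also moved with the genotype. Over 12504 protein-coding genes tested, GC content and log2 fold change had a Spearman rho of -0.62, across genes, which are not independent replicates. Members had transcripts of 45.8% to 49.9% GC, where the median gene had 49.9%. With the trend on GC content and length removed in each library, the log2 fold changes were -2.04 for Cyp4a10, -2.66 for Cyp4a14, -3.20 for Cyp4a12b, -1.72 for Cyp4a12a, -0.50 for Cyp4a32 and -0.08 for Cyp4a31. The same 3 members were called lower and none higher, where that fit called 4.56% of all genes lower and 3.72% higher. So the 4 larger differences were at least as large with this correction, and Cyp4a31 changed sign within its error.

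**Figure D4:**
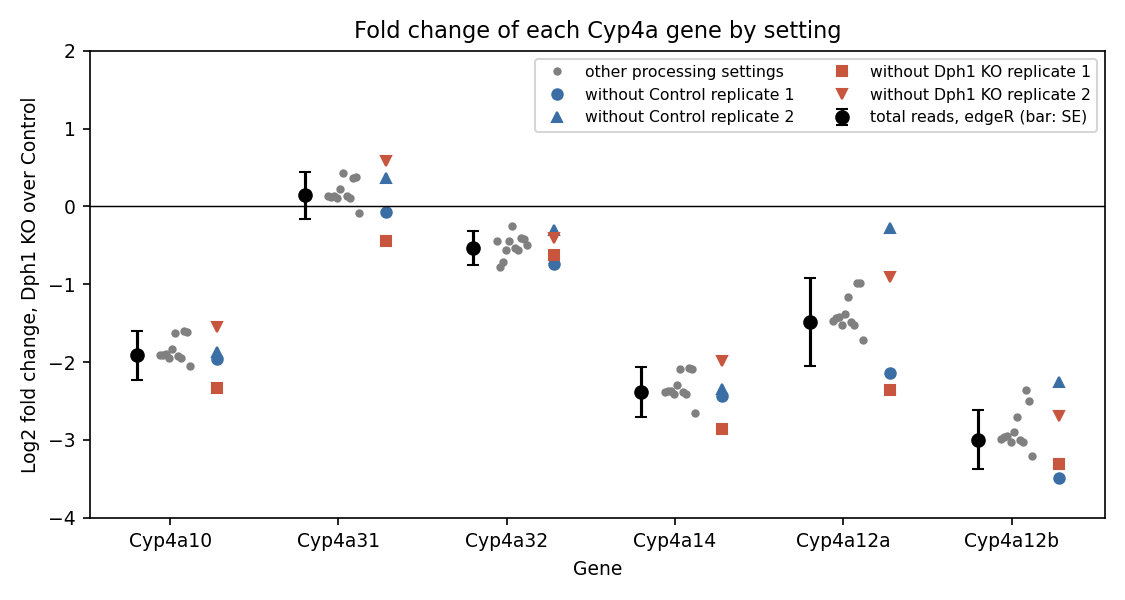
Log2 fold change of each Cyp4a gene (Dph1 KO over Control) with all reads and all libraries (black, bar 1 SE), under 11 other processing settings (grey), and with each library left out (coloured). Cyp4a10, Cyp4a14 and Cyp4a12b stay between -3.49 and -1.55 throughout, Cyp4a12a runs from -2.36 to -0.27 depending on the library left out, and Cyp4a31 falls on both sides of 0.

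Few genes around the members had enough reads to compare, and a change of the whole region was not tested. Of 14 other genes within 200 kb of the members, 9 had no read in any library, among them Cyp4x1, another Cyp4 gene of the locus. The entry for Cyp4a29 had 2, 0, 0 and 0 reads. Cyp4b1, the only gene of its Cyp4 subfamily, lies next to Cyp4a32 and had 28.8 and 37.5 CPM in Control and 20.3 and 19.1 CPM in Dph1 KO. It fell, at a log2 fold change of -0.75 (SE 0.20, edgeR adjusted p = 0.0407). The call was lost without either Control library (adjusted p = 0.0706 and 0.388) and with the GC trend removed (0.0553), as well as with library totals alone and with limma on TPM. Atpaf1, at the far end of the window, had a log2 fold change of 0.58 (adjusted p = 0.102) and 4732418C07Rik one of 0.56 (adjusted p = 0.104).

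Of the members, a RefSeq promoter window (GRCm38.p6, from 250 bases before to 50 after the start) was found for Cyp4a32 only. The DR1 element, AGGTCA repeated with 1 base between, which PPAR-alpha binds with its partner RXR, had no match there with up to 2 mismatches on either strand, where 3.86% of 32851 windows had one. With 3 mismatches allowed there was a match on the minus strand at -97, as in 24.6% of windows. TTCNNNGAA, the STAT5 element, had no match there (8.30% of windows). TATAAA matched on the minus strand at -113, as in 13.6% of windows. These letters describe the window and say nothing of the factors.

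By the pattern over the 4 libraries, Cyp4a10 and Cyp4a14 were the most alike of the 15 pairs of members, at a root mean square difference of 0.24 in centred log2 CPM. Cyp4a12b and Cyp4a14 came to 0.47 and the Cyp4a12 copies to 0.84. Among 7237 other genes with at least 10 CPM, the nearest to Cyp4a10 were Mup16 (0.13), Bid (0.24) and Dusp23 (0.25), and the nearest to Cyp4a14 were Mup16 (0.32), Atp6v0e2 (0.42) and Bid (0.43). Cyp4a12b was nearest to Hba-a1 (0.39), Akr1b3 (0.57) and Cidec (0.58). Cyp4a12a had no gene as close as Hba-a1 was to Cyp4a12b, with Acot1, Acot2 and Txnip all at 0.57. The genes nearest to Cyp4a31 were Clcn4-2 (0.091), Efna1 (0.11) and Ugt2b35 (0.11), and those nearest to Cyp4a32 were Cda (0.062), Iqsec1 (0.065) and Npc1 (0.066). These distances rest on 4 libraries and are a description, and Mup16, Hba-a1, Acot1 and Acot2 have near-identical relatives of their own.

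Genes that act with the Cyp4a enzymes were taken from 6 lists of 124 genes, of which 114 were tested. Of these, 10 fell, 7 rose and 97 were not called, so 8.77% fell and 6.14% rose, beside 7.47% and 4.86% of all genes. The median log2 fold change was -0.16, where that of all tested genes was 0.04. Both shares were near those of all genes, and 9 to 17 genes fell and 6 to 26 rose under the other settings with all libraries. Without the second Control library 4 fell and 1 rose, and without the first 9 fell and 1 rose. Without the first Dph1 KO library 17 fell and 4 rose, and without the second 25 fell and 21 rose. The counts pooled over the 6 lists therefore say nothing particular about the pathway.

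Among other Cyp4 hydroxylases, 9 of 14 genes were tested, of which 3 fell, 1 rose and 5 were not called. The median log2 fold change was 0.01. Cyp4f14, which inactivates leukotriene B4 by omega-oxidation, had 162 and 204 CPM in Control and 94.7 and 96.4 CPM in Dph1 KO. It fell by 0.94 on the log2 scale (edgeR adjusted p = 0.0288). Cyp4f13 fell by 0.87 (adjusted p = 0.0365), from 152 and 192 CPM to 90.1 and 98.2 CPM. Both calls were lost without either Control library (adjusted p = 0.0715 and 0.286 for Cyp4f14, 0.0933 and 0.344 for Cyp4f13), and Cyp4f13 was at -0.47 with the GC trend removed (adjusted p = 0.108). Cyp4f39 rose by 2.09 (adjusted p = 0.0327) but was scarce, at 0.163 and 0.501 CPM in Control and 1.53 and 1.33 CPM in Dph1 KO, and its call was lost without the first Control or the first Dph1 KO library.

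The electron and haem supply of P450 enzymes was tested for 13 genes, of which 2 fell and none rose, with a median log2 fold change of -0.09. Por, the reductase that passes electrons to all microsomal P450 enzymes, had 942 and 1373 CPM in Control and 414 and 538 CPM in Dph1 KO. Its log2 fold change was -1.28 (SE 0.30, edgeR adjusted p = 0.0271). The value was -0.74 with the GC trend removed (adjusted p = 0.0636) and -0.99 without the second Control library (adjusted p = 0.239). Alas1, the rate-limiting enzyme of haem synthesis in liver, fell from 1246 and 799 CPM to 155 and 445 CPM (log2 fold change -1.77, SE 0.45, adjusted p = 0.0337), and its value ran from -2.71 to -1.18 with a library left out. DESeq2 did not call Alas1. Cyb5, another electron donor, had 477 and 346 CPM in Control and 692 and 684 CPM in Dph1 KO. Its log2 fold change was 0.74 (edgeR adjusted p = 0.0864), and 0.95 with the GC trend removed (adjusted p = 0.0343). In this list 1 gene was called higher with DESeq2, library totals alone, limma on TPM, and the GC trend removed.

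No gene of the oxidation of omega-hydroxy acids to dicarboxylic acids was called among 9 tested, by edgeR or by DESeq2. At an unadjusted edgeR p under 0.05, 2 were higher and none lower, where 2168 of all 13303 genes were higher and 2381 lower. The median log2 fold change of the list was 0.07. Adh1, its most abundant gene, had 2228 and 2822 CPM in Control and 1993 and 2049 CPM in Dph1 KO (log2 fold change -0.32, edgeR adjusted p = 0.449). Aldh2 had 1260 and 1484 CPM against 1434 and 1453 CPM (0.07, adjusted p = 0.870). With scaling by library totals alone 3 genes of this list were called higher, and with limma on TPM 4 were.

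Peroxisomal beta-oxidation, which shortens the dicarboxylic acids, had 28 genes tested, of which 1 fell and 2 rose, at a median of -0.12. Acot3, a peroxisomal acyl-CoA thioesterase, fell from 3.21 and 7.40 CPM to 1.53 and 0.32 CPM (log2 fold change -2.50, edgeR adjusted p = 0.0262). With a library left out it ran from -3.99 to -1.77, and DESeq2 did not call it. Crot, which makes carnitine esters of the shortened acids, rose by 1.24 (adjusted p = 0.0262), from 153 and 160 CPM to 463 and 276 CPM. Hacl1, of alpha-oxidation, rose by 1.08 (adjusted p = 0.0425), from 69.1 and 84.5 CPM to 212 and 112 CPM. With a library left out, Crot ran from 0.84 to 1.58 and missed the threshold without either Control library, and Hacl1 ran from 0.57 to 1.49 and was called in 1 of 4 such fits. The call of Hacl1 was also lost with the GC trend removed (adjusted p = 0.0543).

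Of 35 PPAR-alpha target genes outside the peroxisome, 3 fell, 1 rose and 31 were not called, with a median log2 fold change of -0.44. The median was -0.30 with the GC trend removed and -0.20 without the second Control library. It was -0.17 with scaling by library totals alone, where the median of all genes was 0.30, and -0.08 with limma on log2(TPM + 1), where that of all genes was 0.32. At an unadjusted edgeR p under 0.05, 11 of the 35 were lower and 3 higher, where 2381 and 2168 of all 13303 genes were. Both Dph1 KO libraries lay below both Control libraries for 19 of the 35, beside 32.5% of all genes. The list was written with earlier results of these data known, and no set test was made. Cidec, a lipid droplet protein, had 25.4 and 35.8 CPM in Control and 6.82 and 7.82 CPM in Dph1 KO. It fell by 2.06 (SE 0.23, edgeR adjusted p = 0.000773) and was called under each of the 15 other settings.

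Fads2, a desaturase of polyunsaturated fatty acids, fell from 267 and 265 CPM to 103 and 131 CPM (-1.19, edgeR adjusted p = 0.0166). Retsat, which saturates retinol, fell from 751 and 765 CPM to 394 and 383 CPM (-0.96, adjusted p = 0.0381). Etfdh, which passes electrons from beta-oxidation to ubiquinone, rose from 87.2 and 101 CPM to 197 and 150 CPM (0.88, adjusted p = 0.0388). These 3 calls were lost without either Control library, with log2 fold changes of -1.35 to -1.0 for Fads2, -0.98 to -0.93 for Retsat and 0.70 to 1.08 for Etfdh over the 4 fits, and that of Etfdh was also lost with the GC trend removed.

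Among 22 genes for PPAR-alpha and its partners, 3 rose, 1 fell and 18 were not called, at a median of 0.38. Ppara itself had 149 and 160 CPM in Control and 204 and 162 CPM in Dph1 KO (log2 fold change 0.24, edgeR adjusted p = 0.471). Rxrb, a partner receptor, fell from 189 and 198 CPM to 58.3 and 98.8 CPM (-1.30, adjusted p = 0.0193) and was called under each of the 15 other settings. Pparg, the related receptor of fat cells, rose from 1.36 and 1.00 CPM to 3.48 and 3.8 CPM (1.62, adjusted p = 0.0191), and not past the threshold without the second Control library. The coactivator genes Ncoa1 (0.80, adjusted p = 0.0352) and Ncoa6 (0.71, adjusted p = 0.0491) rose, and neither was called without either Control library or with the GC trend removed. Ncoa6 was also not called with unique reads, with DESeq2 or its size factors, or without the first Dph1 KO library.

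**Figure D5:**
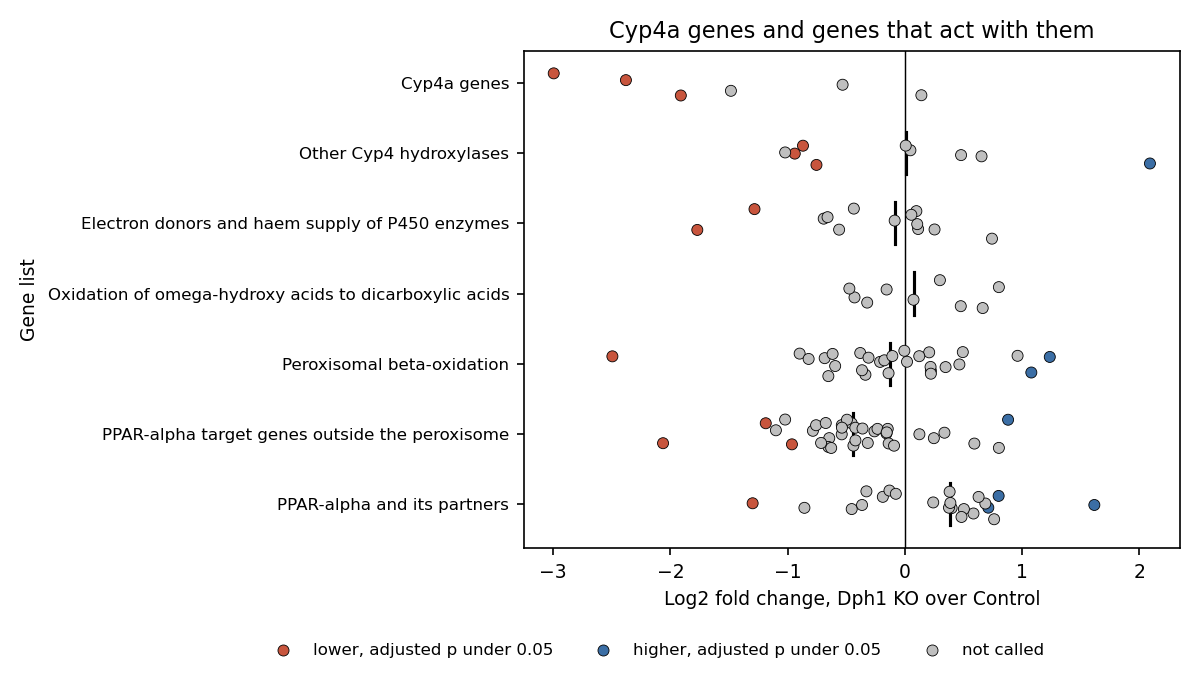
Log2 fold change (Dph1 KO over Control) of the Cyp4a genes and of each tested gene in the 6 pathway lists, with points coloured where the edgeR adjusted p was under 0.05 and a black bar at each list's median. Cyp4a12b at -3.0 lies below every other point, and 97 of 114 pathway genes are not called.

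Sex and growth hormone govern Cyp4a12a in mice, so lists for both were counted. Of 13 male-biased liver genes 3 rose (Hsd3b5, Elovl3 and Cyp7b1) and 1 fell (Selenbp2), and of 7 female-biased genes tested 3 rose (Cyp2a4, Cyp2b9 and Cyp2c40) and 1 fell (Acot3). Xist, the RNA that marks female cells, had 0 to 4 reads in each library. The 4 Y-linked genes listed summed to 17.0 and 15.6 TPM in Control and 49.4 and 26.0 TPM in Dph1 KO. Of these 4 genes, 2 rose, and 0 did with the GC trend removed. Of 14 genes of growth hormone and STAT5 signalling, Bcl6 and Igfbp3 rose and Cish fell. Beside these counts, 4.86% of all tested genes rose and 7.47% fell. Cyp2d9 was the most abundant male-biased gene, at 4892 and 4313 CPM in Control and 2602 and 3386 CPM in Dph1 KO (log2 fold change -0.62, edgeR adjusted p = 0.177).

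Expression of Cyp4a10 and Cyp4a14 changes with feeding and the hour of the day, so clock genes were counted too. Of 17 tested, 3 rose, 4 fell and 10 were not called, where 4.86% of all tested genes rose and 7.47% fell. Clock and Arntl were among those that rose, and Dbp and Per2 among those that fell. The called genes of these lists are named after their values were seen. Dbp, an output of the clock, had 174 and 210 CPM in Control and 26.8 and 63.9 CPM in Dph1 KO (log2 fold change -2.08, edgeR adjusted p = 0.00884). It was called under each of the 15 other settings. The part that clock genes, growth hormone genes or the hour of collection play in the members' values was not tested.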

How the data were processed

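Liver RNA of 4 samples (2 per genotype) was made into stranded mRNA libraries, per the labels' protocols. Per the file headers, the authors deposited whole read counts of each gene in separate columns for exons, junctions, introns and the whole gene, both total and unique. The deposited TPM and RPKM values were computed by the authors, per the file headers, and RPKM were not used here. The deposited fractions of unique exon reads and intron reads, per the file headers, were not used either. The submitters' processing notes name GRCm38 (mm10) as the build. Not given in the sources used here are the aligner, the counter, the use of strand and the way reads shared by copies were divided, so values of near-identical copies are uncertain.

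Total gene reads of 4 libraries (19474596 to 21137358 each) were compared with edgeR 4.0.16 in R 4.3.3 (filterByExpr on genotype, TMM factors, glmQLFit and glmQLFTest on genotype alone). The Benjamini-Hochberg adjustment covered 13303 genes, and the threshold was 0.05. "Rose", "fell" and "called" refer to genes past it. Log2 CPM for patterns used a prior count of 2. The members and the gene lists were chosen with earlier results of these data known. Named genes are the members, the 3 genes nearest to each member by pattern with at least 10 CPM, up to 4 called genes of each pathway list (or its 2 most abundant), neighbours within 200 kb and, of the other lists, the most abundant. Called genes of the other lists, and Cfd, Adipoq, Fabp4 and Cyb5, fall outside this rule and were chosen after their values were seen. The main alternatives were other read classes and scalings, no filter on low counts, DESeq2 1.42.0, limma 3.58.1 on log2(TPM + 1) or log2(TPM + 0.1), each library left out in turn, and a trend on GC content and exon length removed with mgcv 1.9.3. GC content was found for 99.5% of 21058 protein-coding genes. Coding exons and transcripts came from GENCODE M21, and promoter windows from RefSeq (GRCm38.p6). Python 3.11.15, pandas 2.3.3 and SciPy 1.17.1 gave the tables and the exact binomial intervals. 1 gene of the lists is not reported here.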

Additional observations from a re-analysis of the deposited data

How the results depend on the processing

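The members were chosen on this contrast, so their calls on the same 4 libraries describe the settings and are no independent support. Cyp4a10, Cyp4a14 and Cyp4a12b were called lower under all 11 other settings and with each library left out, with log2 fold changes of -2.34 to -1.55, -2.86 to -1.99 and -3.49 to -2.26. Cyp4a12a was called under 4 of the 11 settings (library totals only, no filter, and limma with either pseudocount), and Cyp4a32 with exon reads, total or unique. Cyp4a31 changed sign with the GC trend removed (-0.082), and ran from -0.44 (without Dph1 KO replicate 1) to 0.59 (without Dph1 KO replicate 2) with a library left out, at -0.07 without Control replicate 1. The members called lower numbered 3 or 4 throughout, and those called higher 0 to 1 with a library left out. Leaving out each library in turn gave log2 fold changes of -2.37 to -1.44 for the family sum, -2.48 to -0.52 for the Cyp4a12 sum and -2.07 to -1.33 for the Cyp4a10 trio. Under the 11 other settings these sums ran from -2.03 to -1.56, -1.87 to -1.16 and -1.78 to -1.39. The family sum was at -1.56 with library totals only, in place of TMM factors.

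Counts over all genes depended more on the setting. Genes called lower were 562 with limma on log2(TPM + 1), 578 with log2(TPM + 0.1), 606 with the GC trend removed, and 346 to 2806 with a library left out. Genes called higher were 1072 with upper quartile scaling, 2634 with library totals only, 2363 and 2476 with limma, and 180 to 2599 with a library left out. Among fits with a library left out, the highest counts came without Dph1 KO replicate 2, and the lowest without either Control library. Rises made up 39.4% of calls in the report, 52.5% with upper quartile scaling, 76.9% with library totals only, 80.8% and 81.1% with limma, and 31.1% with DESeq2. Library totals moved the median log2 fold change of all genes up by 0.26, and limma on TPM by 0.28 and 0.33. Pathway genes called lower were 17 with unique exon reads, 17 with DESeq2, and 4 to 25 with a library left out. Pathway genes called higher were 11 with upper quartile scaling, 25 with library totals only, 25 and 26 with limma, and 1 to 21 with a library left out. The causes were not tested. Where 1 library of a genotype remained, the fit took its spread from the other pair.

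No paired analysis was possible because the labels give no replicate numbers: 1 and 2 here only name the libraries of a genotype, and nothing ties a number to an animal, litter or batch. With 2 libraries per genotype, small differences were not detectable, and intron reads of the Cyp4a12 copies, at 1 to 62 per library, were too few to compare.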
